A study of Homo sapiens with 9 samples.

Results

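The response of GM12878 lymphoblastoid cells to a day of sulforaphane was read from 6 of the 9 arrays in the series, the 3 titled as treated for 24 h and the 3 titled as untreated, over all 22011 transcript clusters of the deposited table. A transcript cluster is the set of exon probes that the array assigns to 1 transcribed locus. GM12878 is an established human B-lymphoblastoid line, made by transformation with Epstein-Barr virus. All cultures of this 1 line started at 900000 cells per ml, and their medium held 15% serum. The treated group received 10 µM D,L-sulforaphane, the racemic compound, and was harvested 24 h later, whereas the untreated group was harvested at 0 h. A vehicle of 0.1% DMSO is named in the protocol, and whether the untreated cultures received it is not stated in the labels. No culture kept for 24 h without sulforaphane was analysed here, so treatment and a day in culture cannot be told apart. The remaining 3 arrays, from cultures at 8 h, entered the fit only through the shared estimate of the spread and through the 24 h against 8 h values of the closing section. Labels describe triplicate cultures for each time, so the tests measure the spread between cultures of 1 line. In such bulk RNA, fewer cells of a kind and less RNA per cell cannot be told apart.

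Sulforaphane is an isothiocyanate derived from cruciferous vegetables. It modifies cysteines of KEAP1, the adaptor that otherwise sends the transcription factor NRF2 to the proteasome, and NRF2 then drives genes of haem breakdown, iron storage, glutathione synthesis and NADPH supply. In dividing cells a separate programme is switched on in waves: E2F factors drive genes of DNA replication, and the MYBL2-MuvB complex with FOXM1 drives genes of mitosis. Lymphoblastoid cells divide continuously, so both programmes can be read in them.

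Mean signal, the log2 RMA value that the authors deposited, lay between 7.97 and 8.14 over the arrays. Lineage markers were read first: 11 of 11 measured B-lineage markers stood above the upper quartile of all clusters in untreated cells. Of 9 plasma-cell markers 4 stood above it (IRF4, JCHAIN, SLAMF7 and XBP1) and 8 above the median. Above the upper quartile also stood 1 of 17 T and NK markers (LCK) and 1 of 12 epithelial markers (KRT8). None of 11 myeloid, 8 erythroid or 11 fibroblast and endothelial markers did. Such ranks compare signals of different probes, and they bear on lineage only, not on the identity of the line. Untreated replicate 2 stood apart, with a first principal component score of 54.4 against a range from -29.9 to 16.4 on the other arrays. The median SD of a cluster was 0.150 among the untreated arrays and 0.0919 among those at 24 h.

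A total of 357 clusters (1.62% of those tested) were called at an adjusted p below 0.05, of which 183 rose (0.831%) and 174 fell (0.791%). Among the 14232 genes with a cluster of their own, 247 were called (1.74%), of which 104 rose (0.731%) and 143 fell (1.00%). Rises had a median size of 0.59 and falls one of -0.65 on the log2 scale, and 26 rises and 20 falls reached 2-fold. On all 357 called clusters the 3 treated arrays lay wholly above or below the 3 untreated arrays, as they did on 5354 clusters in all (24.3%). Many falls shared a function: 72 of the 143 fallen genes (50.3%) were members of 11 cell-cycle lists, and 0 of the 104 risen genes were. These lists held 294 of the 14232 genes, and they were drawn up with earlier results of these data known. The 72 became 90 when untreated replicate 2 was dropped and 10 when untreated replicate 3 was, 19, 13 and 23 for the 24 h replicates and 21 and 34 for 8 h replicates 1 and 3. In these lists 2 members rose when untreated replicate 1 was dropped. Of the risen genes 21 (20.2%) belonged to any of the 64 lists used here, as did 90 of the fallen genes (62.9%). The share of all genes in these 64 lists was not counted. Risen genes had a median untreated signal of 8.54 and fallen genes one of 9.60.

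**Figure D1:**
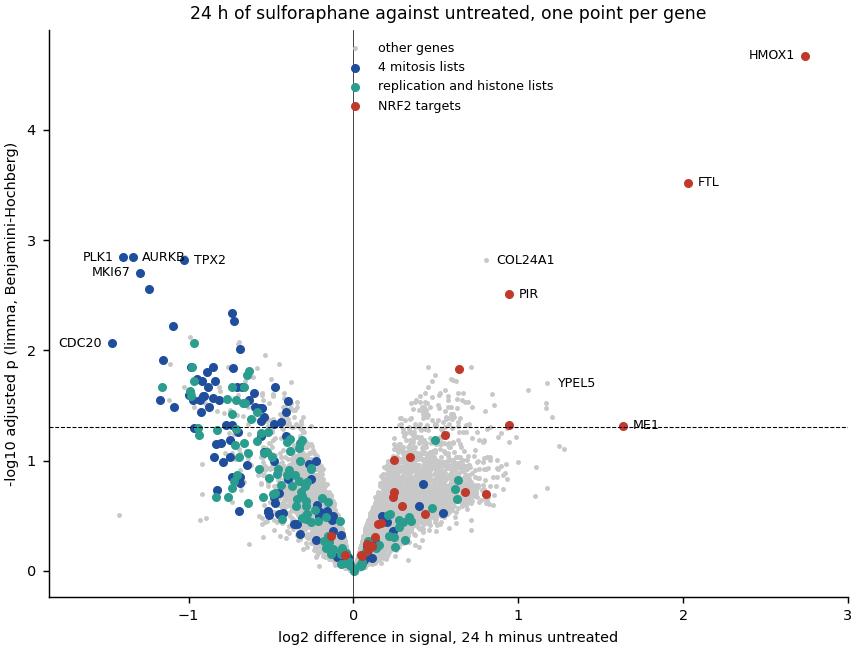
Each point is 1 of 14232 genes, with the log2 difference between 24 h and untreated on the x axis and -log10 of the adjusted p (limma) on the y axis; the dashed line marks 0.05. Called members of the mitosis lists (blue) and of the replication and histone lists (green) occupy the upper left. HMOX1 and FTL stand alone at the upper right. Of the 104 mitosis members 58 did not pass, and most replication and histone members did not pass either.

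The number of calls depended on the arrays in the fit. It was 20 (6 up, 14 down) when the 8 h arrays were left out. Dropping a single array gave 768 calls for untreated replicate 1 (550 up, 218 down) and 21 for replicate 3. The 314 calls made when untreated replicate 2 was dropped were 98 rises and 216 falls, a less even split. The counts were 44, 34 and 55 when 24 h replicate 1, 2 or 3 was dropped, and 56 or 101 when 8 h replicate 1 or 3 was dropped. Quantile normalization gave 216 rises and 344 falls, and centring each array on its median 204 and 306, against 183 and 174 as deposited. Both scalings moved the median difference over all clusters from 0.02 to -0.05. Of the 88 named genes and clusters that were called, 15 passed in all 9 fits that each dropped 1 array and 49 in at most 3 of them. By array, 80, 65 and 15 of the 88 passed when untreated replicate 1, 2 or 3 was dropped, 26, 20 and 27 for the 24 h replicates, and 26, 76 and 38 for the 8 h replicates. Among these 88, the genes called under all 20 alternatives that were run were HMOX1, FTL, PLK1, AURKB, MKI67, CDCA3, TPX2, GPR84 and FOXM1. Genes given below with a value alone, such as AURKA, were not followed in this way.

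Genes that carry a cell through mitosis formed the largest group of falls. In 4 lists that cover mitotic kinases, kinetochores, the spindle and mitotic chromosomes, 46 of 104 measured members fell (44.2%, against 1.00% of all genes), 0 rose and 58 did not pass. Their median difference was -0.57, against -0.01 over all genes. The count of falls in these lists was 8 when untreated replicate 3 was dropped, and dropping 24 h replicate 1, 2 or 3 gave 13, 10 or 15, and dropping 8 h replicate 1 or 3 gave 15 or 21.

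Of 27 mitotic kinases, cyclins and factors of the anaphase-promoting complex, 17 fell, 0 rose and all 27 had a lower mean, with a median difference of -0.64. CDC20, the activator of the anaphase-promoting complex, read 12.06, 11.73 and 12.14 on the untreated arrays and 10.43, 10.43 and 10.67 at 24 h. The highest treated array thus lay more than 1 log2 unit below the lowest untreated array, and the fall was 1.47 ± 0.15 (SE, n = 3 and 3) on the log2 scale, or 2.76-fold (adjusted p = 0.00859, and 0.0518 without untreated replicate 3). PLK1, the kinase that drives centrosome maturation and mitotic exit, went from 11.73, 11.70 and 11.54 to 10.11, 10.31 and 10.36, 2.63-fold lower (adjusted p = 0.00143). AURKB, the enzyme of the chromosomal passenger complex, had untreated signals of 11.23, 11.41 and 11.36 and treated signals of 9.82, 10.11 and 10.06, 2.52-fold lower (adjusted p = 0.00143). Both kinases passed in all 9 fits that left out 1 array.

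CDK1, the cyclin-dependent kinase of mitotic entry, was at 9.65, 9.10 and 9.06 in untreated cells and at 8.00, 8.16 and 8.37 after treatment, a fall of 1.09 ± 0.18 (adjusted p = 0.0328). Its untreated replicate 1 stood above the other 2, and the call held in 3 of 9 fits without 1 array. CDCA3, which triggers destruction of the mitotic inhibitor WEE1, fell by 1.24 ± 0.10, from 9.62, 9.33 and 9.47 to 8.05, 8.33 and 8.31. PBK, a mitotic kinase, fell by 1.18 ± 0.18, from 8.45, 7.75 and 7.97 to 6.66, 7.02 and 6.96. CCNB2 and CCNA2, the cyclin partners of CDK1, fell by 0.93 and 0.91. CCNB1, the other B-type cyclin, differed by -0.75 ± 0.18 and did not pass (adjusted p = 0.0933), with untreated signals of 10.06, 9.33 and 9.97 and treated signals of 9.18, 8.86 and 9.07. Smaller falls were those of AURKA (-0.73), the securin PTTG1 (-0.44), the separase ESPL1 (-0.54) and the entry inhibitors WEE1 (-0.40) and PKMYT1 (-0.56). The list thus held fallen genes that promote mitotic entry beside fallen genes that restrain it.

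**Figure D2:**
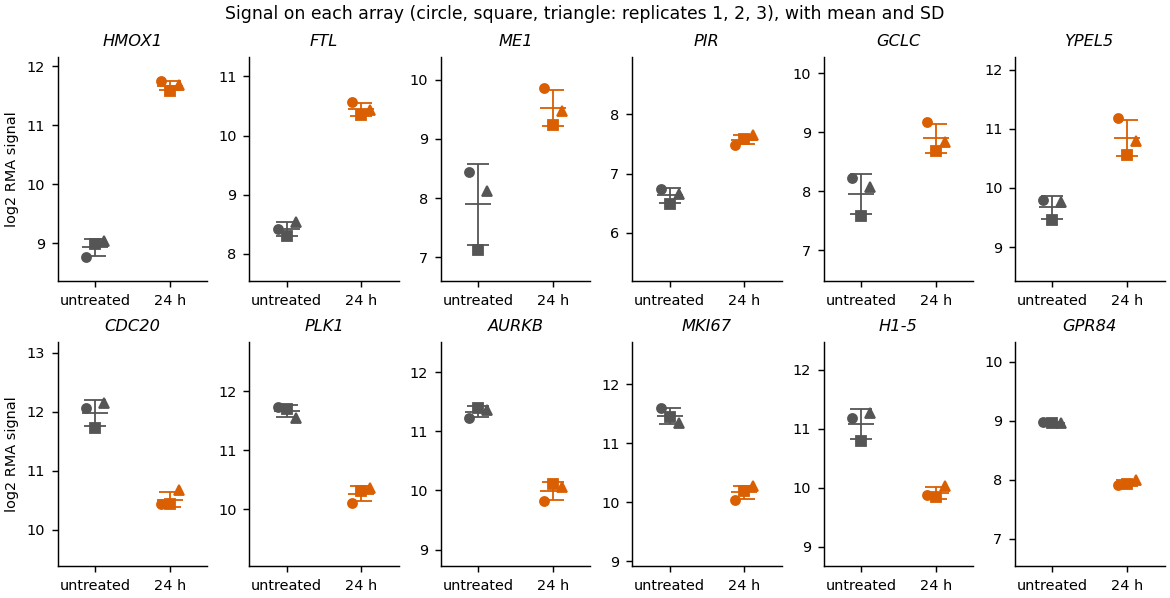
Log2 RMA signal of 12 genes on each array (grey, untreated; orange, 24 h; circle, square and triangle, replicates 1, 2 and 3), with the mean and SD of each group; every panel spans the same range of log2 units. HMOX1 rose from 8.77 to 9.03 untreated to 11.59 to 11.74 at 24 h, and the 3 arrays of each group were close together for PLK1 and GPR84 but spread by over 1 unit for untreated ME1.

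Kinetochore proteins join chromosomes to spindle microtubules, and 13 of the 33 measured fell, with a median of -0.51. KNL1, the scaffold on which checkpoint proteins assemble, fell from 9.81, 9.51 and 9.45 to 8.42, 8.51 and 8.55, a difference of -1.10 ± 0.10 (adjusted p = 0.00603). NDC80, which grips the microtubule, fell from 8.78, 8.38 and 8.37 to 7.51, 7.62 and 7.74 (adjusted p = 0.0216). CENPI of the inner kinetochore and CDCA8 of the passenger complex fell by 0.98 ± 0.15 and 0.91 ± 0.13. CENPA, the histone variant that marks centromeres, fell by 0.68, its chaperone HJURP by 0.82, and BIRC5 and INCENP, which hold AURKB at the centromere, by 0.73 and 0.48. All 4 members of the passenger complex (AURKB, BIRC5, INCENP and CDCA8) were therefore lower.

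Spindle and cytokinesis genes gave the lowest median of any list, -0.69, with 11 of 25 fallen and all 25 lower in mean. TPX2, which activates AURKA on the spindle, fell from 11.04, 10.90 and 10.88 to 9.85, 9.92 and 9.96 (-1.03 ± 0.07, adjusted p = 0.00153). DLGAP5, a spindle microtubule stabiliser, fell from 10.41, 10.20 and 10.15 to 8.96, 9.10 and 9.23. KIF11, the motor that pushes spindle poles apart, fell by 0.93 ± 0.16, and CEP55 and PRC1, needed for the last cut between daughter cells, by 0.92 and 0.89. For KIF11 the treated arrays read 8.50, 8.47 and 8.50 while untreated replicate 1, at 9.75, was above 9.23 and 9.26.

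Of 19 genes of mitotic chromosome structure, 5 fell: MKI67, the proliferation antigen that coats mitotic chromosomes, NCAPH and NCAPD3 of condensin, TOP2A, which untangles sister DNA, and CDCA5, which protects cohesion. MKI67 went from 11.60, 11.45 and 11.35 to 10.05, 10.19 and 10.27, 2.45-fold lower (adjusted p = 0.00199). NCAPH went from 10.31, 9.80 and 10.38 to 9.17, 9.05 and 9.28, and TOP2A from 11.24, 10.93 and 10.88 to 9.98, 10.05 and 10.07. The median of this list was -0.16 and 7 of its members had a higher mean at 24 h.

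**Figure D3:**
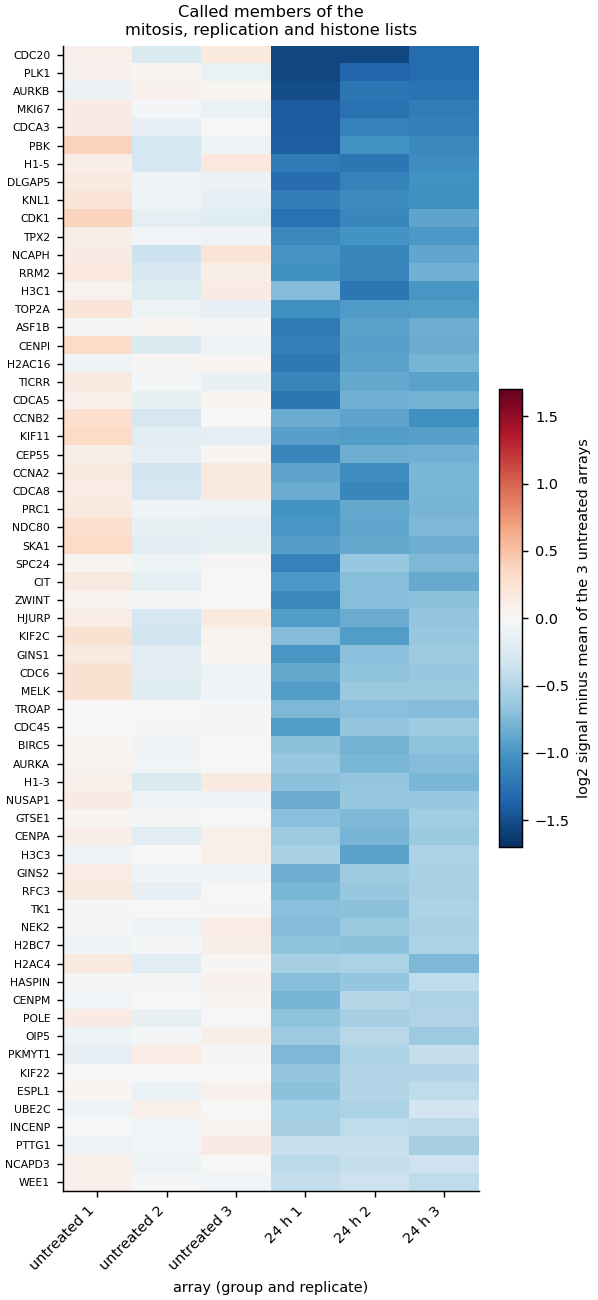
Log2 signal of the 63 called members of the mitosis, replication and histone lists (rows) on the 6 arrays (columns), each relative to the mean of its 3 untreated arrays, with blue for lower. Treated arrays lie between -1.55 and -0.32 and untreated arrays between -0.36 and 0.39.

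Promoter sequences were set beside these falls because the mitotic programme is read through a pair of short elements, the CHR, bound by the MuvB complexes, and the CCAAT box, bound by NF-Y. In the RefSeq table (GRCh38.p14), 11386 of the 14232 genes matched 16426 promoters, and the 250 bases before each start were searched on both strands. The CHR letters TTTGAA occurred in 20 of 41 promoters of the fallen mitosis genes (48.8%). They occurred in 19 of 65 promoters of mitosis genes that were not called (29.2%) and in 10.8% of all promoters. The 41 promoters came from 35 of the 46 fallen genes and the 65 from 47 genes, so some genes count more than once. CCAAT occurred in 33 of those 41 (80.5%) and in 32.8% of all. All 20 promoters with the CHR also held CCAAT, a combination found in 4.02% of all promoters. Over all fallen genes the shares were 28.2% for the CHR and 56.3% for CCAAT, and over all risen genes 6.90% and 36.2%. These matches describe letters in a window and not binding.

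The last 110 bases before the start of 4 fallen genes show the arrangement, with TTTGAA and CCAAT, or its reverse complement ATTGG, in capitals; each is printed 5′ to 3′ on the strand of the gene.
CDC20, chr1:43358871-43358980, plus strand: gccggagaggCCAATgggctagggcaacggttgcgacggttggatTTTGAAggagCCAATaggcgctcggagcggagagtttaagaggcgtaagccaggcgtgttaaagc
PLK1, chr16:23678779-23678888, plus strand: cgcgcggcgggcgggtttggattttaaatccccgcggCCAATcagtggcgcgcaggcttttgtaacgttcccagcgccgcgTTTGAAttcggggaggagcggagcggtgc
CCNB2, chr15:59105036-59105145, plus strand: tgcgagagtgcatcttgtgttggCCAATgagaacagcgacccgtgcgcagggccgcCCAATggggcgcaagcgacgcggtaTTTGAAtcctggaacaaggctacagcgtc
MKI67, chr10:128126424-128126533, minus strand: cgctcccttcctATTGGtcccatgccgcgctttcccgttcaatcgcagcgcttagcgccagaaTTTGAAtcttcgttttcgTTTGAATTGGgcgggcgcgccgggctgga

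In PLK1 and CCNB2 the CHR lay at the same place, 29 to 24 bases before the start, downstream of a CCAAT box. MKI67 also had a match at 29 to 24, which shares 1 base with a reversed CCAAT box, and a further match at 47 to 42. CDC20 had a match at 65 to 60, between a pair of CCAAT boxes that begin 100 and 55 bases before the start, and a further match on the opposite strand at 178 to 173, outside the printed stretch.

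Transcription factors of the cycle were among the falls themselves. MYBL2, which joins the MuvB complex in S phase, read 11.53, 11.52 and 11.52 untreated and 10.11, 10.54 and 10.58 at 24 h, a fall of 1.11 ± 0.12 (adjusted p = 0.0132), with treated replicate 1 the lowest. FOXM1, its partner at late mitotic promoters, fell from 10.07, 10.10 and 10.01 to 8.92, 9.07 and 9.22, and passed in all 9 fits without 1 array. The repressor E2F8 fell from 9.17, 8.98 and 9.03 to 7.72, 8.12 and 8.27, and its relative E2F7 by 0.44 ± 0.08. These were the 4 falls among 16 regulators of this kind (25%, against 1.00% of all genes), where the median was -0.12. The count was 1 when untreated replicate 3 was dropped and 2 for 24 h replicate 2 or 8 h replicate 1. Of 16 G1 cyclins, kinases and inhibitors, CDKN3, a CDK phosphatase, fell by 0.76 ± 0.12 and CDK2 by 0.51 ± 0.08, and neither passed when untreated replicate 3, a 24 h array or 8 h replicate 1 or 3 was dropped, with 1 passing when untreated replicate 2 was. The inhibitor CDKN1A (p21) read 11.40, 11.31 and 11.60 untreated and 12.16, 11.72 and 11.80 at 24 h; its difference of 0.46 ± 0.14 did not pass (adjusted p = 0.147).

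DNA replication genes fell as well. Of 26 factors that license and fire origins, 5 fell (19.2%, against 1.00% of all genes), with a median of -0.29. TICRR, which with TOPBP1 loads the helicase activators, fell from 9.44, 9.25 and 9.16 to 8.15, 8.41 and 8.37 (adjusted p = 0.00859). CDC45 fell from 9.68, 9.67 and 9.71 to 8.74, 9.03 and 9.08, and GINS1 from 10.04, 9.71 and 9.92 to 8.91, 9.18 and 9.29; both belong to the active helicase. CDC6, which loads the MCM ring, fell by 0.74 ± 0.13 and GINS2 by 0.66. The licensing count was 9 when untreated replicate 2 was dropped, 3 when 8 h replicate 3 was, and 1 when untreated replicate 3, a 24 h array or 8 h replicate 1 was.

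Of 30 replication fork genes, 3 fell (10%, against 1.00% of all genes) and 26 had a lower mean, with a median of -0.34. ASF1B, a histone chaperone behind the fork, fell from 11.55, 11.61 and 11.53 to 10.37, 10.65 and 10.74. RFC3 of the clamp loader and POLE, the leading-strand polymerase, fell by 0.66 ± 0.10 and 0.59 ± 0.10. Quantile normalization raised this count to 13, dropping 8 h replicate 2 gave 6, and it was 0 or 1 when untreated replicate 3, a 24 h array or 8 h replicate 1 or 3 was dropped. Among 22 genes of deoxynucleotide synthesis, RRM2 and TK1 fell. RRM2, the regulated subunit of ribonucleotide reductase, went from 10.39, 9.93 and 10.30 to 9.16, 9.09 and 9.39, and TK1, thymidine kinase, from 10.09, 10.10 and 10.13 to 9.39, 9.41 and 9.58. The list median was -0.02, and thymidylate synthase TYMS differed by -0.31 ± 0.07 without passing (adjusted p = 0.0647). The 2 calls were 0 when untreated replicate 3 or 24 h replicate 1 or 2 was dropped, and 1 for 24 h replicate 3 or 8 h replicate 1.

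Replication-dependent histone genes supply the chromatin of S phase, and 7 of 43 fell (16.3%, against 1.00% of all genes). Their median was -0.51 and 37 were lower in mean. The linker histone H1-5 went from 11.19, 10.79 and 11.26 to 9.87, 9.84 and 10.03, 2.24-fold lower. H2AC16 went from 13.10, 13.18 and 13.22 to 11.96, 12.25 and 12.38, and H3C1 from 9.24, 8.98 and 9.31 to 8.44, 7.95 and 8.19. H1-3, H3C3, H2BC7 and H2AC4 fell by 0.62 to 0.71. Histone genes are near-identical copies, so a cluster may read RNA of several, and the assignment to single genes is uncertain. The count was 15 under quantile normalization. It was 0 when untreated replicate 3 or 24 h replicate 2 was dropped, 1 for replicate 1 of either treated time, 2 for 24 h replicate 3 and 3 for 8 h replicate 3. All 7 promoters of the fallen histone genes in the RefSeq table held CCAAT.

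Among 37 genes of recombination, the Fanconi pathway and checkpoints, 3 fell (8.11%, against 1.00% of all genes). FANCI, a Fanconi anaemia protein, fell by 0.79 ± 0.14, EME1, a subunit of a junction-cutting nuclease, by 0.50 ± 0.06, and the histone variant H2AX by 0.37 ± 0.07. H2AX did not pass under quantile normalization (adjusted p = 0.0725), and the list count was then 8. It was 6 when untreated replicate 2 was dropped, 1 for 8 h replicate 2 or 3, and 0 for untreated replicate 3, 8 h replicate 1 or a 24 h array. DNMT1, the maintenance DNA methyltransferase that travels with the fork, fell from 11.05, 10.92 and 11.01 to 10.41, 10.50 and 10.61 (adjusted p = 0.0419). It was the 1 call among 15 DNA methylation genes and passed in 1 of 9 fits without 1 array. The list count was 3 under quantile normalization, 2 without 8 h replicate 2 and 0 without any other single array.

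The 3 largest rises among genes were those of NRF2 targets. Of 26 measured, 6 rose, 0 fell and 20 did not pass, against 0.731% of all genes that rose; 24 of the 26 had a higher mean and the median was 0.25. HMOX1, which breaks haem down to iron, biliverdin and carbon monoxide, rose from 8.77, 8.99 and 9.03 to 11.74, 11.59 and 11.68, a difference of 2.74 ± 0.09 or 6.67-fold (adjusted p = 2.14e-05). FTL, the ferritin light chain that stores iron, rose from 8.41, 8.30 and 8.54 to 10.56, 10.35 and 10.43, or 4.08-fold (adjusted p = 0.000303). For both genes the gap between the groups exceeded 1.5 log2 units, far beyond the spread within them. SLC48A1, which carries haem out of lysosomes, read 7.99, 7.98 and 7.98 untreated and 8.51, 8.68 and 8.70 at 24 h, a rise of 0.64 ± 0.08 (adjusted p = 0.0147). With HMOX1 and FTL it made 3 rises in the haem and iron list of 23, whose median was 0.16.

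The other 3 NRF2 targets that rose were ME1, GCLC and PIR. ME1, cytosolic malic enzyme, which makes NADPH, rose from 8.44, 7.12 and 8.12 to 9.86, 9.24 and 9.48. Untreated replicate 2 was over 1 unit below replicate 1 here, the SE was 0.31 on a difference of 1.64, and the call (adjusted p = 0.0482) held in 2 of 9 fits without 1 array. GCLC, the catalytic subunit of glutamate-cysteine ligase, rose from 8.22, 7.58 and 8.08 to 9.17, 8.68 and 8.84 (0.94 ± 0.18, adjusted p = 0.0473), and held in 1 of 9. PIR, an iron-binding nuclear protein, rose by the same amount with less spread, from 6.74, 6.49 and 6.65 to 7.49, 7.58 and 7.65 (0.94 ± 0.08, adjusted p = 0.00308), and held in 9 of 9. The number of risen NRF2 targets was 3 when untreated replicate 3 or 24 h replicate 2 or 3 was dropped, and 2 without the 8 h arrays.

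Several well-known NRF2 targets did not pass. TXNRD1, thioredoxin reductase, read 8.84, 8.54 and 8.62 untreated and 9.22 on all 3 treated arrays. These treated values were identical (SD 0), so they give no measure of the spread between treated cultures, and the reason was not tested. The difference was 0.55 ± 0.11, with an adjusted p of 0.0581 by limma. GCLM, the modifier subunit of glutamate-cysteine ligase, differed by 0.80 ± 0.29 (adjusted p = 0.199), with untreated replicate 2 at 6.09 against 7.28 and 7.19. SLC7A11, the cystine importer, differed by 0.43 ± 0.23 and sulfiredoxin SRXN1 by 0.24 ± 0.09. No cluster carried FTH1, NQO1 or NFE2L2 as its single symbol. None of 10 measured regulators of the pathway was called, against 1.74% of all genes called in either direction. The repressor KEAP1 differed by 0.32 ± 0.10 and the ligase adaptor BTRC by 0.41 ± 0.10. For the competitor BACH1 the difference was 0.38 ± 0.10 and for the nuclear receptor RXRA 0.12 ± 0.07.

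The antioxidant response element, searched as TGACNNNGC on both strands, occurred in 11.5% of all promoters. It occurred in 1 of 5 promoters of the risen NRF2 targets and in 9 of 20 promoters (16 genes) of those not called. HMOX1, the largest rise, had no entry in the promoter table and is not among the 5. ME1 held the 1 match, 137 to 129 bases before its start, shown here in capitals in the last 150 bases of its promoter.
ME1, chr6:83431052-83431201, minus strand: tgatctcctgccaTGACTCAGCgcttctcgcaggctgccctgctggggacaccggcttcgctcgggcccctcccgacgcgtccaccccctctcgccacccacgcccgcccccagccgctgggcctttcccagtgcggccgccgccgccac

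Beyond the NRF2 list, antioxidant lists held 0 or 1 call each, against 1.74% of all genes called in either direction. MGST1, a membrane-bound glutathione transferase, was the 1 rise among 19 glutathione transferases and peroxidases (9.88, 9.49 and 9.68 to 10.36, 10.22 and 10.20). It passed in 1 of 9 fits without 1 array. Of 21 thioredoxin and peroxiredoxin genes none was called, and MSRB2, a methionine sulfoxide reductase, differed by 0.59 ± 0.19 (adjusted p = 0.156). ME1 was also the 1 call among 18 genes of the pentose phosphate route and NADPH supply.

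Protein-folding and amino acid stress lists held 0 or 1 call each, against 1.74% of all genes called in either direction. None of 20 measured cytosolic heat shock genes was called, with a median of 0.11. No cluster carried HSPA1A, HSPA1B or HSP90AB1 as its single symbol, so these heat shock genes were not read. DNAJB4, an HSP40 co-chaperone, had the largest difference in the list, 1.25 ± 0.28, and did not pass (adjusted p = 0.0732); its arrays spread from 7.53 to 8.47 untreated and from 8.89 to 9.81 at 24 h. HSPH1 and DNAJB1 differed by 0.23 ± 0.09 and 0.16 ± 0.09. Of 24 endoplasmic reticulum genes 1 rose, DNAJB9, a co-chaperone of BiP (0.50 ± 0.09, adjusted p = 0.0469), and it passed in 0 of 9 fits without 1 array. HSPA5, which encodes BiP, read 12.58, 12.45 and 12.41 untreated and 12.57, 12.44 and 12.42 at 24 h. SLC7A5, the leucine importer, was the 1 fall among 26 ATF4 targets (9.55, 9.63 and 9.64 to 9.14, 9.20 and 9.30), and WARS1, tryptophanyl-tRNA synthetase, the 1 fall among 19 synthetases (-0.35 ± 0.06). SLC7A5 passed in 2 and WARS1 in 3 of 9 fits without 1 array, and neither did without untreated replicate 3, 8 h replicate 1 or 3, or a 24 h array. No call was made among 29 proteasome subunits or 14 serine and one-carbon enzymes, in which PSME1 (-0.19 ± 0.05), PSMD3 (-0.13 ± 0.05) and MTHFD1 (-0.51 ± 0.10) had the smallest p-values beside TYMS.

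Of 34 autophagy and lysosome genes 3 rose, against 0.731% of all genes. A higher mean was found for 32 of them, and for 6810 of all 14232 genes. The list median was 0.21 as deposited and 0.13 under quantile normalization. NBR1, a cargo receptor of autophagy, rose from 9.55, 9.25 and 9.38 to 10.08, 9.85 and 9.92. TFE3, a transcription factor of lysosome genes, rose from 9.17, 9.14 and 9.25 to 9.63, 9.61 and 9.64, and MAP1LC3B, a coat protein of autophagosomes, from 11.59, 11.59 and 11.43 to 11.95, 11.98 and 11.97. TFE3 and MAP1LC3B did not pass under quantile normalization (adjusted p = 0.0827 and 0.0785). The count of 3 was 0 when untreated replicate 2 or 3, 8 h replicate 1 or 3, or a 24 h array was dropped.

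p53 targets had the highest median of any list, 0.36 (0.27 under quantile normalization). Of 29 such genes 28 were higher in mean, against 6810 of all 14232 genes, yet 1 passed (3.45%, against 0.731% of all genes that rose). That gene, TP53INP1, which couples p53 to autophagy and cell death, rose from 10.05, 9.88 and 9.88 to 10.61, 10.52 and 10.45 (adjusted p = 0.0180). The list had 4 calls when untreated replicate 1 was dropped, and 0 when untreated replicate 3, 8 h replicate 1 or a 24 h array was. None of 19 BCL2 family genes or 24 death receptor and caspase genes was called, against 1.74% of all genes called in either direction. Their leading members by limma's p were PMAIP1 (NOXA, 0.42 ± 0.09, adjusted p = 0.0744), BAX (0.26 ± 0.06, adjusted p = 0.0784), TNFRSF10B, a receptor for TRAIL (0.34 ± 0.08, adjusted p = 0.0755), and TNFSF10, TRAIL itself (-0.69 ± 0.16, adjusted p = 0.0844). The treated values of BAX were identical on the 3 arrays (SD 0).

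**Figure D4:**
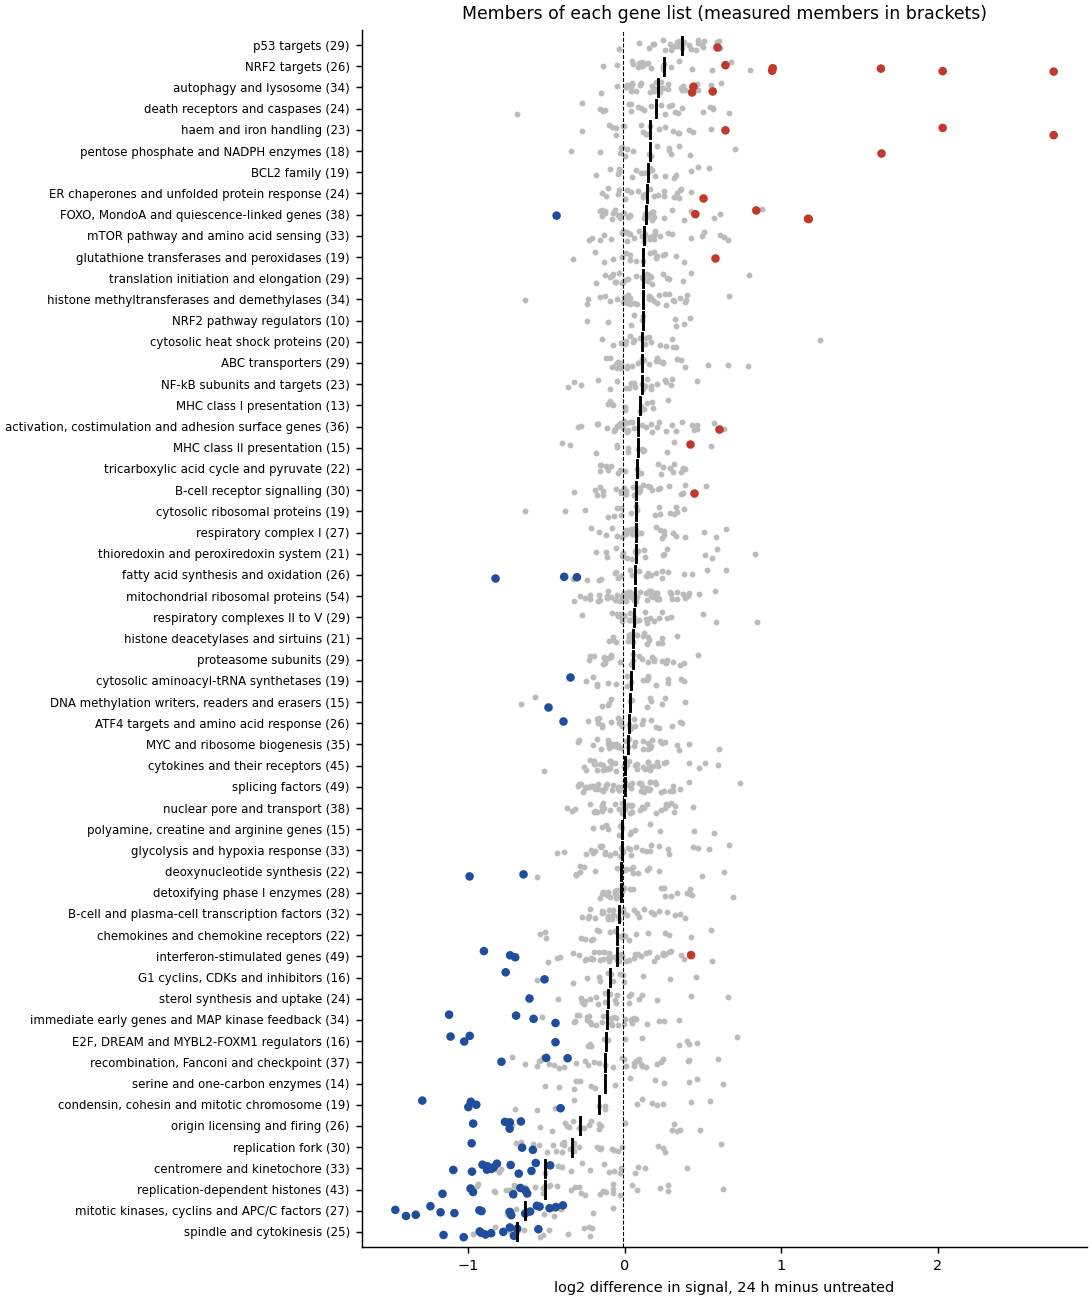
Each row is 1 of 57 gene lists and each point 1 measured member, placed by its log2 difference between 24 h and untreated; red points rose and blue points fell at an adjusted p below 0.05, grey points did not pass, black bars are list medians and the dashed line is the median over all genes. Blue points gather in the cell-cycle rows at the bottom, down to a median of -0.69, and rows of growth, RNA and energy genes hold only grey points around 0.

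Genes linked to FOXO factors, MondoA and quiescence gave 4 rises and 1 fall among 38, against 0.731% and 1.00% of all genes. YPEL5, a subunit of the CTLH ubiquitin ligase, rose from 9.80, 9.45 and 9.76 to 11.18, 10.57 and 10.79, 2.26-fold (adjusted p = 0.0199). KLHL24, a substrate adaptor of cullin 3 ligases, rose from 8.29, 7.72 and 8.15 to 9.60, 8.93 and 9.13, and TCP11L2 from 6.94, 6.82 and 6.68 to 7.92, 7.51 and 7.53. In all 3 genes replicate 1 was the highest array of its group. TSC22D3 (GILZ), a glucocorticoid- and FOXO-induced leucine zipper protein, rose by 0.45 ± 0.05 but did not pass under quantile normalization (adjusted p = 0.0642). KLF6, a zinc finger factor, fell by 0.44. TXNIP, the main MondoA target, differed by 0.25 ± 0.15. The 4 rises were 0 when untreated or 24 h replicate 3 was dropped, 1 for 24 h replicate 1 or 2 or 8 h replicate 1, and 2 for 8 h replicate 3.

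Over 185 measured genes of ribosomal proteins, ribosome biogenesis, mitochondrial ribosomes, translation factors, polyamines and mTOR signalling, limma called 0, and the median was 0.06, in a comparison where 4489 of 22011 clusters had an unadjusted p below 0.05 and 1.74% of all genes were called. Without untreated replicate 1 there were 3 rises among translation factors, 1 in the mTOR list and 1 in the polyamine list. MYC read 11.45, 11.15 and 11.55 untreated and 11.80, 11.62 and 11.76 at 24 h (0.34 ± 0.11, adjusted p = 0.170). Its antagonist MXD1 came closest to the threshold (0.60 ± 0.12, adjusted p = 0.0501). Among the others EIF4H, a helper of the eIF4A helicase, differed by 0.79 ± 0.17, the mTOR regulator RRAGC by 0.63 ± 0.15 and the polyamine acetyltransferase SAT1 by 0.57 ± 0.16, and none passed.

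Of 34 immediate early and MAP kinase feedback genes, which respond to growth factors and antigen, 4 fell and 0 rose, against 1.00% of all genes that fell. SGK1, a serum- and glucocorticoid-induced kinase, fell from 8.37, 7.80 and 8.43 to 7.06, 6.97 and 7.20. The ETS factor ETV4 fell from 7.72, 7.91 and 7.83 to 7.06, 7.12 and 7.20, and DUSP4, a phosphatase that turns off ERK, from 9.43, 9.39 and 9.47 to 8.76, 8.87 and 8.91 (adjusted p = 0.00835 and 0.0144). EGR1 fell by 0.44 ± 0.08. The 4 falls were 0 when untreated replicate 3 was dropped, 1 for 24 h replicate 1 or 2, and 2 for 24 h replicate 3 or 8 h replicate 1 or 3.

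Of 49 interferon-stimulated genes 3 fell and 1 rose, against 1.00% and 0.731% of all genes. OAS3, which makes the second messenger of RNase L, fell from 8.75, 8.74 and 8.86 to 7.99, 8.11 and 8.15 (adjusted p = 0.00874, and 0.0518 without untreated replicate 3). APOL6 fell by 0.90 ± 0.14 and XAF1, a pro-apoptotic binding partner of XIAP, by 0.73 ± 0.14. BST2 (tetherin), which holds budding virus at the membrane, rose by 0.42 ± 0.08. It passed in 2 of 9 fits without 1 array and not under median centring, the replicate block or quantile normalization (adjusted p = 0.101 for the last). The falls numbered 7 under quantile normalization and 5 when 8 h replicate 2 was dropped. They numbered 0 when untreated replicate 3 was dropped, and 1 for 24 h replicate 1 or 2 or 8 h replicate 1 or 3. No member was called among 23 NF-kB genes, 22 chemokines and their receptors or 45 cytokines and their receptors. Their leading members were IER3 (-0.33 ± 0.07), NFKBIB (-0.36 ± 0.08), CXCR3 (-0.51 ± 0.11), CCL22 (-0.21 ± 0.06), IL1B (-0.51 ± 0.11) and LTA (0.48 ± 0.12).

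Few B-cell identity genes were called. Over all genes 1.74% were called in either direction, so 1 call in a list as short as those below does not set the list apart. MS4A1 (CD20) read 12.91, 13.11 and 13.11 untreated and 12.87, 12.97 and 13.05 at 24 h, and the groups overlapped. PAX5 differed by -0.10 ± 0.07, PRDM1, the plasma-cell regulator, by 0.35 ± 0.15 and IRF4 by 0.32 ± 0.09, without passing. No B-cell or plasma-cell transcription factor was called among 32, in which POU2AF1 (-0.23 ± 0.05) and ZBTB32 (-0.22 ± 0.05) had the smallest p-values. BLK, a SRC-family kinase of the B-cell receptor, was the 1 rise among 30 signalling genes (0.44 ± 0.08, adjusted p = 0.0381). It passed in 0 of 9 fits without 1 array and not under quantile normalization (adjusted p = 0.0851). LGMN, a lysosomal protease, was the 1 rise among 15 class II presentation genes (0.41 ± 0.07). It passed in 3 of 9 fits without 1 array, and not without untreated replicate 3, a 24 h array or 8 h replicate 1 or 3, under median centring or under the replicate block. Class I presentation gave no call among 13 (B2M 0.12 ± 0.06, TAP1 0.18 ± 0.09). CD274 (PD-L1), the ligand of the inhibitory receptor PD-1, rose from 10.80, 10.39 and 10.60 to 11.27, 11.17 and 11.14 (adjusted p = 0.0391) and was the 1 call among 36 surface genes of activation and adhesion. That list had 2 calls when untreated replicate 1 was dropped, and 0 when untreated replicate 2 or 3, 8 h replicate 1 or 3, or a 24 h array was.

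Of 26 fatty acid genes 3 fell, against 1.00% of all genes: SCD, FADS2 and FADS1, which all encode desaturases. SCD, which introduces the first double bond into saturated fatty acids, fell from 10.89, 10.52 and 10.77 to 9.91, 9.69 and 10.10, 1.77-fold lower (adjusted p = 0.0356). FADS2 and FADS1, the desaturases of polyunsaturated fatty acids, fell from 10.89, 10.90 and 10.79 to 10.46, 10.47 and 10.49 and from 10.58, 10.51 and 10.51 to 10.21, 10.19 and 10.28. The median of the list was 0.07 as deposited and -0.04 under quantile normalization. DHCR7, the last enzyme of cholesterol synthesis, fell from 10.70, 10.63 and 10.64 to 10.04, 9.98 and 10.12, the 1 call among 24 sterol genes. It passed in 4 of 9 fits without 1 array, and not without untreated replicate 3, a 24 h array or 8 h replicate 1. The count of falls among fatty acid genes was 0 when untreated replicate 3, 8 h replicate 1 or 3, or a 24 h array was dropped.

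Energy metabolism gave no call in 33 glycolysis and hypoxia genes, 27 complex I genes, 29 genes of complexes II to V or 22 of the tricarboxylic acid cycle. Over all genes 1.74% were called in either direction, so 0 calls in a list this short, here and below, does not set it apart. Examples are ALDOC (-0.43 ± 0.11), BNIP3L (0.47 ± 0.13), NDUFS4 (0.65 ± 0.18), COX5B (0.27 ± 0.11) and SUCLA2 (0.39 ± 0.16). Sulforaphane metabolites are also known as inhibitors of histone deacetylases, so the deacetylase genes were listed: 0 of 21 were called. HDAC1 differed by 0.14 ± 0.12, HDAC3 by 0.21 ± 0.12, HDAC6 by -0.10 ± 0.06 and SIRT5 by 0.33 ± 0.11. There was likewise no call among 34 histone methyltransferases and demethylases (SUV39H1 -0.63 ± 0.13, EZH1 0.27 ± 0.08), 29 ABC transporters (ABCA9 0.78 ± 0.17, ABCC2 0.25 ± 0.06), 28 phase I enzymes (CYP1B1 0.69 ± 0.17), 49 splicing factors (SNRPA -0.30 ± 0.06) or 38 nuclear pore genes (AAAS -0.37 ± 0.08). These counts of 0 also moved with the arrays: 3 ABC transporters and 2 glycolysis genes rose without untreated replicate 1. Of the 31 lists with no call, 12 had at least 1 in that fit, 6 without untreated replicate 2, 7 without 8 h replicate 2, 15 under quantile normalization, and 0 without any other single array.

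The largest rises outside these lists were of mixed function. AGBL3, a carboxypeptidase that trims tubulin tails, read 6.0, 5.37 and 6.0 untreated and 7.35, 6.65 and 6.97 at 24 h. TAS2R5, a bitter taste receptor, went from 5.76, 5.71 and 6.30 to 7.28, 7.09 and 6.90, and TXK, a kinase of the Tec family, from 7.31, 6.73 and 6.99 to 8.28, 7.95 and 7.98. These signals were low, and AGBL3 passed in 1, TAS2R5 in 2 and TXK in 3 of 9 fits without 1 array. COL24A1, a fibrillar collagen chain, had the smallest spread of the large rises, from 7.17, 7.14 and 7.12 to 8.02, 7.93 and 7.90 (0.81 ± 0.06, adjusted p = 0.00153), and passed in 9 of 9. ABHD4, a lysophospholipase, rose by 0.80 ± 0.14 and SLC49A4, a lysosomal transporter, by 0.83 ± 0.16; they passed in 2 and 1 of the 9 fits. The largest fall outside the cell-cycle and signalling lists was GPR84, which senses medium-chain fatty acids. It read 8.98, 8.96 and 8.96 untreated and 7.91, 7.93 and 8.00 at 24 h (adjusted p = 0.00143).

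Clusters without a single symbol held some of the largest differences. Cluster 3696666, with several symbols, rose from 9.32, 9.06 and 9.22 to 11.28, 11.27 and 11.29 (4.23-fold, adjusted p = 7.83e-05), and it passed in 9 of 9 fits without 1 array. Cluster 2831989 rose from 4.07, 3.37 and 4.11 to 5.30, 5.15 and 5.91. Cluster 3815726 fell from 8.10, 8.18 and 7.77 to 7.02, 6.68 and 6.95. Cluster 3392880 fell by 2.05 ± 0.38, from 6.29, 4.77 and 5.59 to 3.93, 3.08 and 3.50, with an SD of 0.76 among the untreated arrays and 0.42 at 24 h, and it passed in 2 of 9 fits. Of the 5171 clusters with no symbol 55 rose (1.06%) and 12 fell (0.232%), against 0.831% and 0.791% of all clusters.

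Markers of other cell types were read beside these results. The summed linear signal of 11 myeloid markers lay between 2684 and 2744 on untreated arrays and between 2074 and 2195 at 24 h. GPR84 and PLAUR, the urokinase receptor (-0.43 ± 0.08), were its 2 falls, all 11 members had a lower mean, and the monocyte marker CD14 stood at the 31.7th percentile of untreated signals. Both fallen genes are part of the sum, so it is not a reading separate from their falls. The markers too were listed with earlier results of these data known. The sum of 17 T and NK markers lay between 4258 and 4669 untreated and between 3924 and 4018 at 24 h, with 0 called. PECAM1 (-0.43 ± 0.08) was the 1 call among 11 fibroblast and endothelial markers, and DSC3, a desmosomal cadherin (8.47, 8.08 and 8.25 to 9.36, 8.90 and 9.10), the 1 call among 12 epithelial markers. In the 9 fits without 1 array PECAM1 passed in 3, DSC3 in 2 and PLAUR in 1. None of 8 erythroid markers was called, with HBB at -0.12 ± 0.09, and none of 9 plasma-cell markers, with TNFRSF17 at 0.57 ± 0.14. B-lineage sums overlapped, from 62067 to 67246 untreated and from 62661 to 66086 at 24 h. The part of these markers in the results was not tested.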

How the data were processed

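RNA of 9 cultures was hybridised to Affymetrix Human Exon 1.0 ST arrays. The deposited values are log2 RMA signals, summarised by the authors per core transcript cluster and sketch-quantile normalised in Affymetrix Expression Console, per the labels' protocols and the submitters' processing notes; the annotation release, the build and all versions were not given in the sources used here. Of 22011 clusters, 14432 had 1 symbol (14232 genes; for 197 symbols with several clusters the brightest was used), 2408 several and 5171 none in the platform annotation; only clusters with 1 symbol were named as genes. For 14404 of these the symbol was matched through Entrez IDs.

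Values were fitted as deposited with limma 3.58.1 in R 4.3.3, with 1 mean per group over all 9 arrays. The 24 h minus untreated contrast was tested with eBayes (two-sided), with Benjamini-Hochberg adjustment over all clusters; a call is an adjusted p below 0.05. The workflow was tested on simulated data. Lists were counted, not tested. Named were the 15 largest rises and falls among called genes, up to 4 called members per list or the 2 of smallest p where none was called, a panel of genes, and the 2 largest rises and falls among clusters without 1 symbol. Other members given with a value alone (such as CCNB2, CENPA, HJURP, BIRC5, INCENP, AURKA, PRC1 and KLF6) and marker percentiles were chosen after their values were seen. The genes, lists and tests were chosen with earlier results of these data known. Group means are of n = 3 arrays, errors of differences are SE, and precision is limited by the few arrays. Promoters came from RefSeq (GRCh38.p14). Alternatives tried were other sets of arrays, a replicate block, filters on low signals, quantile and median scaling, other variance models, thresholds and averaging of clusters.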

Additional observations from a re-analysis of the deposited data

Results flagged for a closer look

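The 24 h arrays were also set against the 8 h arrays in the same fit. Of the 166 named genes and clusters, 22 differed there by limma's test at an adjusted p below 0.05. Many of the 166 were named for their difference between these same 24 h arrays and untreated, so the count is not independent of that choice. The share over all clusters was not counted. Differences are 24 h minus 8 h on the log2 scale. Mitosis genes were lower at 24 h than at 8 h: PLK1 (-1.42), CDC20 (-1.24), DLGAP5 (-1.22), MKI67 (-1.20), TPX2 (-1.17), NDC80 (-1.12), AURKB (-1.07), CDCA3 (-1.06), KNL1 (-1.04), TOP2A (-1.02), CEP55 (-0.97) and the factor FOXM1 (-0.98). TICRR (-0.83) and CDKN3 (-0.80) were lower as well. PLK1 and TPX2 had the smallest adjusted p of these (0.0025 for both). For PLK1 the 8 h mean was 11.68, within the untreated range of 11.54 to 11.73.

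Stress genes differed in both directions. HMOX1 was lower at 24 h than at 8 h (-0.69, adjusted p = 0.0258), as were the chaperone HSPH1 (-0.75) and the co-chaperone STIP1 (-0.59). The endoplasmic reticulum chaperone HSPA5 was higher (0.62), as were the immediate early gene IER3 (0.58) and TSC22D3 (0.36). Of these STIP1, HSPA5, HSPH1 and IER3 were not called against untreated at 24 h. Cluster 3696666 was higher at 24 h than at 8 h by 0.57 and cluster 3392880 lower, at -2.52.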

How the results depend on the processing

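Of 88 named genes and clusters that were called, 0 changed direction under any alternative run. Calls were few without the 8 h arrays: 20 in all, 6 up and 14 down, with 2 NRF2 targets, 5 mitotic kinase, 1 kinetochore, 3 spindle, 0 licensing and 0 histone genes; all 20 were among the 357. At an adjusted p below 0.01 there were 24 calls, 9 up and 15 down, with 3 NRF2 targets, 5 mitotic kinase, 1 kinetochore, 3 spindle, 1 licensing and 0 histone genes. A 1.5-fold minimum left 196, 95 up and 101 down. Quantile normalization gave 560 calls and 344 falls (38.6% of its calls were rises, against 51.3%), with 19 spindle, 9 licensing and 15 histone genes; 313 of the 560 were shared with the 357. Median centring gave 510, with 306 falls, 40.0% rises and 12 histone genes. Leaving out the 25% dimmest clusters gave 517 calls with 292 rises and 11 histone genes, and leaving out those below the median 13 histone genes. Testing single-symbol clusters only, or averaging clusters of a symbol, gave 12 histone genes. Gene-by-gene array weights, chosen after seeing the data, gave 1889 calls, 1133 up and 756 down, with 10 NRF2 targets, 22 kinetochore, 21 spindle, 13 licensing and 22 histone genes. The planned array weights by REML could not be fitted. The cause of these moves was not tested, beyond the fewer arrays or genes that some settings hold.

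Leaving out 1 array gave 21 to 768 calls, 9 to 550 rises and 12 to 218 falls. The lists then held 3 to 7 NRF2 targets, 4 to 17 mitotic kinase, 1 to 16 kinetochore, 2 to 17 spindle, 1 to 9 licensing and 0 to 8 histone genes. Without untreated replicate 2 there were 314 calls, 212 of them shared with the 357. The replicate number as a block gave 378 calls, 241 up and 137 down. Same-numbered 24 h and untreated arrays had deviations that correlated at 0.39, 0.38 and 0.056, and differently numbered ones at -0.42 to 0.13. For same-numbered 24 h and 8 h arrays the values were 0.00998, -0.025 and 0.00637. The main fit did not pair cultures by number, and whether the numbers mark a shared source of spread was not tested.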

Other observations

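Some values outside the lists were noticed after the data were seen. Of 311 genes whose symbols start with ZNF, most of which encode zinc finger factors, 10 rose (3.22%) and 1 fell, with a median difference of 0.16, against 0.731% of all genes that rose. Clusters with no symbol, 5171 of all 22011, gave 16 of the 26 rises of at least 2-fold and 1 of the 20 such falls. Their median difference was 0.13, against -0.01 for clusters with 1 symbol. With clusters ranked by signal, 50 rose (0.909%) and 79 fell (1.44%) among the brightest 25%. Among the dimmest 25%, 18 rose (0.327%) and 4 fell (0.0727%). Over all clusters 0.831% rose and 0.791% fell.

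Short letters described as E2F-like sites, TTTGGCGC or TTTCCCGC, occurred in 13 of 142 promoters of 108 fallen genes (9.15%) and in 2.40% of all promoters. Promoters of fallen replication genes, 15 from 10 genes, held CCAAT in 12 of 15 and TTTGAA in 1 of 15.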
